A study of Drosophila melanogaster with 4 samples.

Results

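The genes described here are those of the *Drosophila* proteasome, together with the further copies of its subunits in the fly genome. Members were all genes of the BDGP6 annotation whose symbol begins with *Prosalpha* or *Prosbeta*, or with *Rpn* or *Rpt* followed by a digit, and 48 of the 13771 genes with deposited counts met this rule. A symbol with T or R after the subunit number marked a paralog, which gave 16 paralogs of 12 different subunits, and the other 32 genes were called canonical subunits. RNA was sequenced from pooled testes of 5-day-old *sws1* males and of 5-day-old Canton S males (WT), with 2 libraries per genotype. *sws1* is a nonsense allele of *Swiss cheese*, which encodes a phospholipase of the PNPLA6 type, and it is present in every cell of the fly. Canton S is a separate stock, so the allele and the rest of the genetic background cannot be told apart.

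The proteasome is the protease complex that degrades ubiquitin-tagged proteins. Its core is a barrel of alpha rings, which gate the entrance, around beta rings, which hold the cutting sites. A regulatory cap sits on the barrel, with Rpt subunits that unfold substrates by ATP hydrolysis and Rpn subunits that bind ubiquitin, remove it or hold the cap together. Fly testes are known for proteasomes that take up male-specific subunits late in spermatogenesis, and the loss of the paralog *Prosalpha6T* makes males sterile with defects in spermatid individualization and nuclear maturation.

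The 4 libraries held 2364636 and 2218335 counts in *sws1* and 4498060 and 2692475 in WT. The mutated gene *sws* had 166 and 179 counts in *sws1* testes, against 662 and 500 in WT testes (log2FC −1.28, SE 0.15, adjusted p = 2.12e-06, edgeR). Counts of a gene's transcripts were summed and given as counts per 1000000 (CPM) after TMM scaling of the library sizes. The quasi-likelihood test of edgeR set *sws1* against WT, and its p-values were adjusted by Benjamini-Hochberg over the 9634 genes tested. A gene was called changed with an adjusted p under 0.05 and an absolute log2 fold change (log2FC, *sws1* over WT) above 0.3. By this rule 20.9% of all genes tested were called, 11.5% with lower and 9.38% with higher expression in *sws1*. Genes of other tissues and of sperm maturation also differed between the libraries. The 13 matched accessory gland markers summed to 1516 and 605 CPM in *sws1* and to 70.3 and 78.3 CPM in WT, with 9 of 13 called higher. The 13 genes of post-meiotic transcription and sperm chromatin summed to 7077 and 7439 CPM in *sws1* and to 10222 and 10011 CPM in WT, with 7 of 13 called lower. The part of either shift in the values below was not tested. In RNA from whole testes, fewer cells of a type and less RNA per cell cannot be told apart.

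Every one of the 48 genes was expressed in every library and passed the filter on low counts. Together they took 0.776% and 0.730% of the counts in *sws1*, against 0.730% and 0.725% in WT (Wilson 95% intervals 0.765 to 0.788, 0.719 to 0.742, 0.722 to 0.738 and 0.715 to 0.735, which cover counting error only). After TMM scaling the sums were 7327 and 7062 CPM in *sws1* and 7714 and 7643 CPM in WT. The raw share was thus no lower in *sws1*, whereas the scaled sum was lower in both *sws1* libraries, so the direction of this small difference rests on the scaling.

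Only 5 of the 48 genes were called changed (10.4%, against 20.9% of all genes tested). *Prosalpha1R*, *Prosalpha6T*, *Rpn12R* and *Rpn6* fell in *sws1*, and *Prosalpha6* rose. Of the 16 paralogs, 3 fell (18.8%, against 11.5% of all genes tested) and 0 rose (against 9.38%). Of the 32 canonical subunits, 1 fell (3.1%, against 11.5%) and 1 rose (3.1%, against 9.38%). DESeq2's Wald test on the same counts called *Rpn12R*, *Prosalpha1R* and *Rpn6* lower and no member higher, where it called 5.53% of all genes lower and 3.18% higher. With upper-quartile scaling in edgeR, *Rpn12R* and *Prosalpha6* stayed called, while *Prosalpha1R*, *Prosalpha6T* and *Rpn6* had an adjusted p of 0.0626, 0.0745 and 0.0532. The same 3 genes were not called without WT replicate 1, the deepest library (adjusted p = 0.198, 0.183 and 0.165, edgeR). Without a multiple-testing adjustment, 10 of the 48 members had a p under 0.05 in edgeR's test. The share of all genes with such a p is not given here, but it includes the 20.9% that were called. Nothing particular to the members is therefore read from this count.

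**Figure D1:**
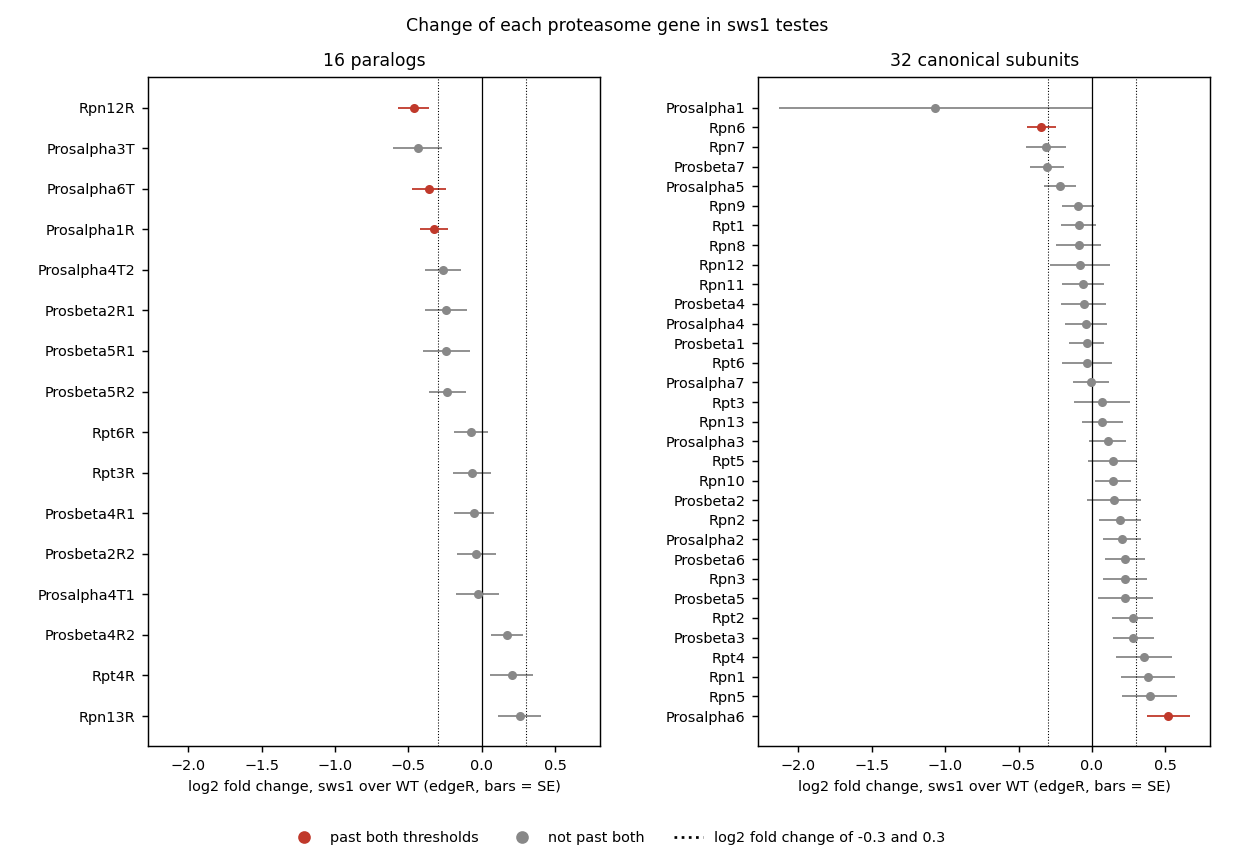
The log2 fold change of each proteasome gene (x axis, *sws1* over WT, with the standard error as bars), for the 16 paralogs on the left and the 32 canonical subunits on the right. Red points passed both thresholds, and the dotted lines mark −0.3 and 0.3. The paralogs lie mainly below 0 and the canonical subunits lie on both sides of it.

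The log2FC of the paralogs lay mainly below 0, and that of the canonical subunits on both sides of it. The log2FC was below 0 in 13 of 16 paralogs, with a median of −0.15 and a range from −0.46 (*Rpn12R*) to 0.26 (*Rpn13R*). It was below 0 in 15 of 32 canonical subunits, with a median of 0.07 and a range from −1.07 (*Prosalpha1*) to 0.52 (*Prosalpha6*). The median over all genes tested was 0.02, and that over the 13 genes of post-meiotic transcription and sperm chromatin was −0.31. Whether the shift of those genes has a part in that of the paralogs was not tested. Both *sws1* libraries lay below both WT libraries in CPM for 8 of 16 paralogs (50%) and 7 of 32 canonical subunits (21.9%), against 28.9% of all genes tested. They lay above for 3 paralogs and 9 canonical subunits, against 31.3% of all genes tested. The median of the paralogs stayed below 0 with each library left out in turn, while that of the canonical subunits was −0.050 without *sws1* replicate 1.

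The share of all proteasome counts that belonged to paralogs does not depend on the scaling between libraries. It was 40.5% and 41.3% in *sws1* testes, against 43.6% and 43.6% in WT testes. The Wilson 95% intervals ran from 39.8 to 41.3 and from 40.6 to 42.1 in *sws1*, and from 43.1 to 44.2 and from 42.9 to 44.3 in WT. These intervals cover counting error only, not the variation between libraries. Both *sws1* libraries were below both WT libraries in this share. The difference of the means was −2.70 percentage points, with a pooled SD between replicates of 0.384 points. An exact two-sided permutation test gave p = 0.33, the smallest value that 2 libraries against 2 allow. Without *Prosalpha1R*, the paralog with the most counts, the difference was −1.89 percentage points.

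In levels per length, given as CPM per kilobase of merged exons, the paralogs were not minor copies. In 14 of the 16 pairs the paralog stood above its parent subunit in all 4 libraries. The exceptions were *Prosalpha3T*, below *Prosalpha3* in all 4, and *Prosbeta5R1*, which was on either side of *Prosbeta5*. Reads shared between transcripts may have been counted differently in genes with several transcripts. Among the 6 pairs in which both genes have a single counted transcript, the paralog was the higher gene in all libraries in 5. The medians over the 16 paralogs were 118 in *sws1* and 122 in WT, and those over the 32 canonical subunits were 80.4 and 85.6.

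**Figure D2:**
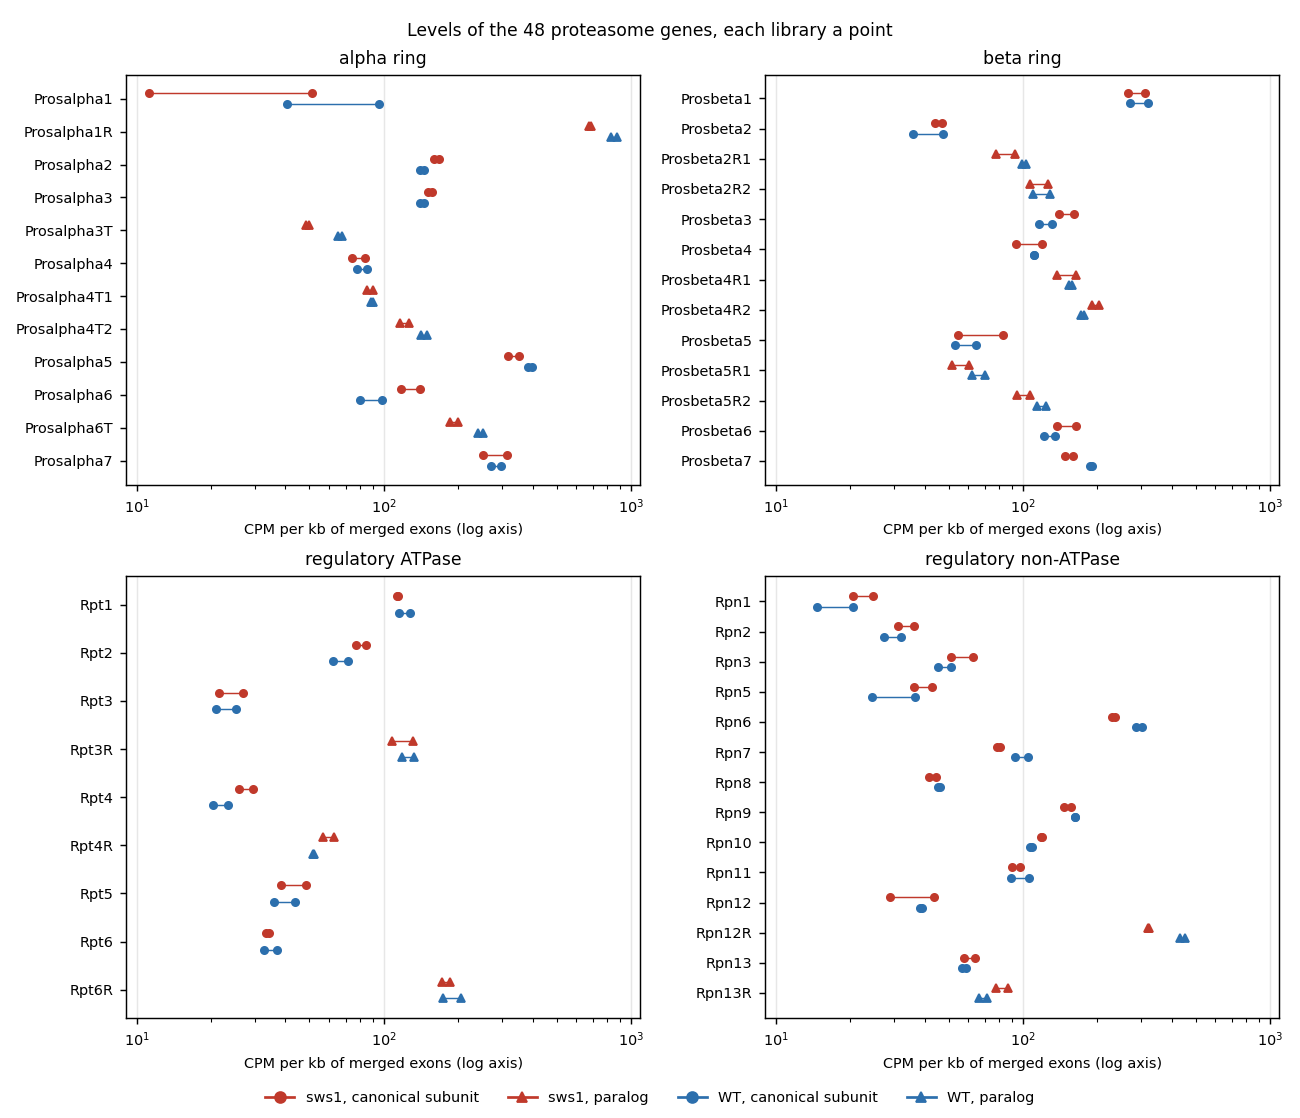
CPM per kilobase of merged exons (log axis) for all 48 proteasome genes in the alpha ring, the beta ring, the regulatory ATPases and the regulatory non-ATPase subunits. Each point is a library, red for *sws1* and blue for WT, with circles for canonical subunits and triangles for paralogs. *Prosalpha1R* is the highest gene in every library, and *Prosalpha1* has the widest spread between replicates.

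The alpha ring held 2 of the 3 called paralogs, with 2 of its 5 paralogs called lower (against 11.5% of all genes tested), 0 called higher (against 9.38%) and all 5 with a log2FC below 0. The number of genes is too small to set this ring apart. *Prosalpha6T*, the male-specific version of the alpha-6 subunit (FBgn0032492, 2L, 13232039 to 13233058, no intron), had 472 and 467 counts in *sws1* and 1091 and 627 counts in WT. Its level was 196 ± 10.8 CPM in *sws1* and 251 ± 7.77 CPM in WT (SD, n = 2 each), and the libraries of the genotypes did not overlap. It fell with a log2FC of −0.36 (SE 0.12, adjusted p = 0.0298, edgeR). The parent *Prosalpha6*, which encodes the canonical alpha-6 subunit (FBgn0250843, 2L, 10221351 to 10222546), had 376 and 289 counts in *sws1* and 448 and 220 in WT. It was the only member that rose, with 138 ± 17.0 CPM in *sws1* and 95.7 ± 13.6 CPM in WT (SD, n = 2 each; log2FC 0.52, SE 0.15, adjusted p = 0.0127, edgeR). The log2FC of the pair therefore had opposite signs, and its summed level differed little, at 338 and 330 CPM in *sws1* against 362 and 332 CPM in WT. Per length, *Prosalpha6T* was 1.32 and 1.70 times its parent in *sws1* testes and 2.55 and 2.99 times its parent in WT testes, with no overlap between the genotypes.

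Both calls of this pair were near the threshold. The adjusted p with DESeq2 was 0.113 for *Prosalpha6T* and 0.115 for *Prosalpha6*, and neither was called by edgeR without *sws1* replicate 1 (adjusted p = 0.151 and 0.141) or without WT replicate 2 (0.0579 and 0.132). The log2FC kept its sign in all fits with a library left out, from −0.42 to −0.30 for *Prosalpha6T* and from 0.38 to 0.68 for *Prosalpha6*. Of the *Prosalpha6* transcripts, FBtr0079948 had 146 counts in *sws1* replicate 1 and 0 counts in the other 3 libraries. FBtr0343606 had 230 and 289 counts in *sws1* and 448 and 220 in WT. The part of FBtr0079948 in the rise of *Prosalpha6* was not tested.

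*Prosalpha1R* was the most abundant proteasome gene in every library, at 677 and 688 CPM per kilobase in *sws1* and 878 and 831 in WT. It had 1614 and 1503 counts in *sws1* and 3555 and 2022 in WT, and it fell to 650 ± 7.85 CPM in *sws1*, against 813 ± 31.1 CPM in WT (SD, n = 2 each; log2FC −0.33, SE 0.10, adjusted p = 0.0201, edgeR). Its separation from the parent gene in the counting is uncertain. *Prosalpha1R* (FBgn0050382, 2R, 7830413 to 7831771) and *Prosalpha1* (FBgn0263121, 2R, 7827303 to 7828678) lie 1734 bp apart on the same strand, both encode 244 residues, and exons 2, 3 and 4 have the same lengths in both genes (100, 177 and 580 bp). Their sequences were not compared here. The counting could have divided reads between them, and *Prosalpha1* had 124 and 25 counts in *sws1* and 168 and 237 in WT, the widest spread of any member (log2FC −1.07, SE 1.06, adjusted p = 0.604, edgeR). Both single values are therefore uncertain. Summed before the fit, the 2 genes had 694 and 666 CPM in *sws1* and 875 and 884 CPM in WT, a log2FC of −0.37 (SE 0.10, adjusted p = 0.00814, edgeR).

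Each gene of this tandem pair also shares 17 bp of exon with a gene on the opposite strand, *phr* for *Prosalpha1* and *CG18853* for *Prosalpha1R*. *CG18853* had 0 and 0 counts in *sws1* and 35 and 28 in WT (adjusted p = 6.80e-06, edgeR), and *phr* had 62 and 50 counts in *sws1* and 75 and 44 in WT (adjusted p = 0.194, edgeR). A count of 0 allows up to 3 counts per library. *CG18853* was thus without counts in the libraries of the *sws1* stock, and its part in the values of *Prosalpha1R* was not tested. The strand setting of the counting was not given in the sources used here.

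The other alpha paralogs were not called. *Prosalpha3T* had 108 and 102 counts in *sws1* and 248 and 154 in WT, or 43.8 ± 0.965 and 59.3 ± 1.41 CPM (SD, n = 2 each). Its log2FC of −0.44 was the second most negative among the paralogs, with non-overlapping libraries and an adjusted p of 0.0675 (edgeR, SE 0.17). Relative to *Prosalpha3*, its level per length was 0.309 and 0.331 in *sws1* and 0.468 and 0.466 in WT. *Prosalpha4T2* had 398 and 333 counts in *sws1* and 758 and 480 in WT (log2FC −0.27, adjusted p = 0.139, edgeR). *Prosalpha4T1*, a copy of the same subunit without introns, had a log2FC of −0.03. The canonical alpha subunits 2, 3, 4, 5 and 7 had a log2FC from −0.22 (*Prosalpha5*) to 0.21 (*Prosalpha2*). Of these, 0 were called, against 20.9% of all genes tested. *Prosalpha5* and *Prosalpha7* were the most abundant canonical alpha genes, and only the libraries of *Prosalpha7* overlapped between the genotypes. *Prosalpha5* stood at 354 and 319 CPM per kilobase in *sws1* and at 399 and 384 in WT, and *Prosalpha7* at 315 and 251 in *sws1* and at 297 and 272 in WT.

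**Figure D3:**
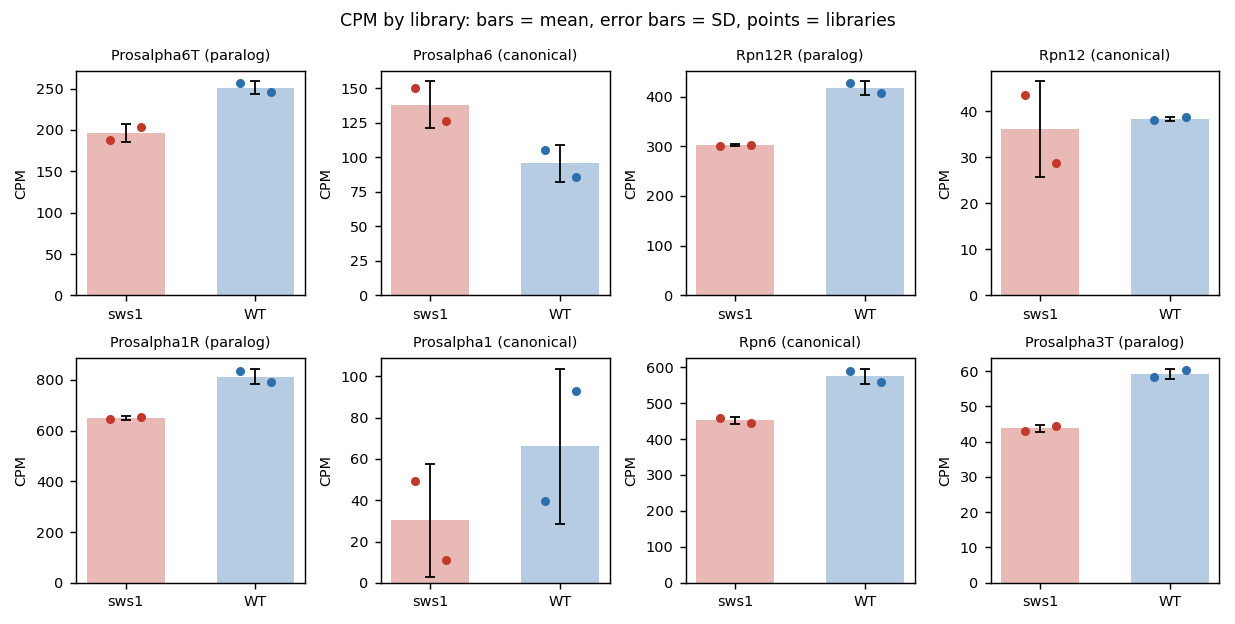
CPM in each library (points), with the mean (bars) and SD (error bars, n = 2) of *sws1* and WT, for the 5 called genes and for *Rpn12*, *Prosalpha1* and *Prosalpha3T*, which were not called. The vertical axis of each panel starts at 0 and has its own scale. *Prosalpha6T* and *Prosalpha6* differ in opposite directions, while *Rpn12* and *Prosalpha1* overlap between genotypes.

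In the beta rings 0 of 13 genes were called, against 20.9% of all genes tested. The number of genes is too small to set these rings apart. The 3 catalytic subunits and their paralogs had a log2FC between −0.24 and 0.23. *Prosbeta1*, which carries the caspase-like activity, had 669 and 520 counts in *sws1* and 1162 and 593 in WT (log2FC −0.04, SE 0.12). *Prosbeta2*, of the trypsin-like activity, had a log2FC of 0.15, and its paralogs *Prosbeta2R1* and *Prosbeta2R2* had −0.24 and −0.04. *Prosbeta5*, of the chymotrypsin-like activity, had 238 and 143 counts in *sws1* and 313 and 154 in WT (log2FC 0.23, SE 0.19), and *Prosbeta5R1* and *Prosbeta5R2* had −0.24 each. The paralogs of a catalytic subunit together made up 83.2% and 79.7% of the level per length of the *Prosbeta2* family in *sws1*, against 86.5% and 81.6% in WT. For the *Prosbeta5* family these shares were 65.5% and 73.9% in *sws1* and 73.2% and 78.6% in WT. The genotypes overlapped in both families, so a difference was not detectable beyond the spread between replicates.

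The other beta genes, which have no cutting site, were also not called. *Prosbeta4R1* and *Prosbeta4R2* are neighbours on 2L, 1467 bp apart, and both exceeded *Prosbeta4* per length in all libraries. *Prosbeta4R2* was the only beta paralog with a positive log2FC (0.17, SE 0.11, adjusted p = 0.287, edgeR), with 782 and 766 counts in *sws1* and 1203 and 744 in WT. Its annotated exons overlap those of *Or23a* on the same strand, so its counts are less certain. *Prosbeta7* had 484 and 411 counts in *sws1* and 988 and 582 in WT, and it lay just outside the significance threshold (log2FC −0.31, SE 0.12, adjusted p = 0.0689, edgeR). *Prosbeta3* and *Prosbeta6* were higher in both *sws1* libraries than in both WT libraries, with a log2FC of 0.28 and 0.22 and an adjusted p of 0.156 and 0.270 (edgeR).

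In the ATPase ring 0 of 9 genes were called, again against 20.9% of all genes tested. The number of genes is too small to set this ring apart as well. The 6 canonical ATPase subunits ranged from a log2FC of −0.09 (*Rpt1*) to 0.35 (*Rpt4*), and the 3 paralogs from −0.07 (*Rpt6R*) to 0.20 (*Rpt4R*). *Rpt3R* had 478 and 359 counts in *sws1* and 818 and 438 in WT, against 105 and 77 counts of *Rpt3* in *sws1* and 166 and 83 in WT. Per length, *Rpt3R* was thus 4.87 and 4.99 times *Rpt3* in *sws1* and 5.27 and 5.64 times in WT. *Rpt6R* was 5.02 and 5.60 times *Rpt6* in *sws1* and 5.28 and 5.56 times in WT. *Rpt4R* was 1.91 and 2.42 times *Rpt4* in *sws1* and 2.55 and 2.19 times in WT. *Rpt1*, *Rpt2* and *Rpt5* have no paralog under the naming rule. Of these, *Rpt1* had the highest level of the canonical ATPases, between 113 and 128 CPM per kilobase over the 4 libraries, while *Rpt3* and *Rpt4* were between 20.4 and 29.7.

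Among the non-ATPase subunits of the cap, *Rpn12R* and *Rpn6* fell. *Rpn12* is a subunit of the cap's lid, and *Rpn12R* is its copy without introns (FBgn0036465, 3L, 15041631 to 15042570). *Rpn12R* had 755 and 696 counts in *sws1* and 1815 and 1041 in WT. At 302 ± 1.49 CPM in *sws1* and 417 ± 13.5 CPM in WT (SD, n = 2 each), it had the smallest adjusted p of all members (log2FC −0.46, SE 0.11, adjusted p = 0.00272, edgeR). DESeq2 gave an adjusted p of 0.00397, and the call held with each library left out in turn, with a log2FC from −0.51 to −0.43. *Rpn12* had only 109 and 66 counts in *sws1* and 162 and 99 in WT (log2FC −0.08, SE 0.20), so that per length *Rpn12R* was 7.33 and 11.2 times its parent in *sws1* and 11.9 and 11.1 times in WT. This ratio overlapped between the genotypes.

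*Rpn6*, a lid subunit that bridges the cap and the core, was the only canonical gene called lower (FBgn0028689, 2R, 14750166 to 14752910). It had 1151 and 1022 counts in *sws1* and 2508 and 1427 in WT, or 452 ± 9.76 and 574 ± 21.8 CPM (SD, n = 2 each), with a log2FC of −0.34 (SE 0.10, adjusted p = 0.0171, edgeR). Its transcript FBtr0087475 had 692 and 647 counts in *sws1* and 1503 and 794 in WT, and FBtr0087474 had 459 and 375 in *sws1* and 1005 and 633 in WT. No annotated exon of *Rpn6*, *Rpn12R*, *Prosalpha6T* or *Prosalpha6* overlaps an exon of another gene. The lid gene *Rpn7* was not called but had a similar log2FC (−0.31, SE 0.13, adjusted p = 0.106, edgeR). Both *sws1* libraries of *Rpn7* also lay below both WT libraries in CPM. In level, *Rpn6* stood apart among the canonical lid genes, at 236 and 229 CPM per kilobase in *sws1* and 303 and 287 in WT. *Rpn3*, *Rpn5*, *Rpn7*, *Rpn8*, *Rpn9*, *Rpn11* and *Rpn12* were between 24.5 and 163.

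The ubiquitin receptors and the deubiquitinase of the cap were not called. *Rpn10*, a ubiquitin receptor, had 427 and 386 counts in *sws1* and 658 and 388 in WT (log2FC 0.14, SE 0.12). This sum joins transcripts with unlike counts. FBtr0078368 had 26 and 12 counts in *sws1* and 199 and 111 in WT. FBtr0333453 had 401 and 374 counts in *sws1* and 459 and 277 in WT. The receptor *Rpn13* had a log2FC of 0.07 and its paralog *Rpn13R*, with 238 and 194 counts in *sws1* and 330 and 185 in WT, had 0.26 (adjusted p = 0.236, edgeR). *Rpn11*, which cuts ubiquitin off the substrate, had 295 and 250 counts in *sws1* and 544 and 275 in WT (log2FC −0.06, SE 0.14). The large scaffold subunits *Rpn1* and *Rpn2* had a log2FC of 0.38 and 0.19. *Rpn1* had the lowest mean level per length in both genotypes, though not the lowest value in every library, at 20.6 and 24.7 CPM per kilobase in *sws1* and 14.7 and 20.5 in WT. *Rpn1* and *Rpn5* were called higher only when WT replicate 2 was left out (adjusted p = 0.0368 and 0.0145, edgeR).

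**Figure D4:**
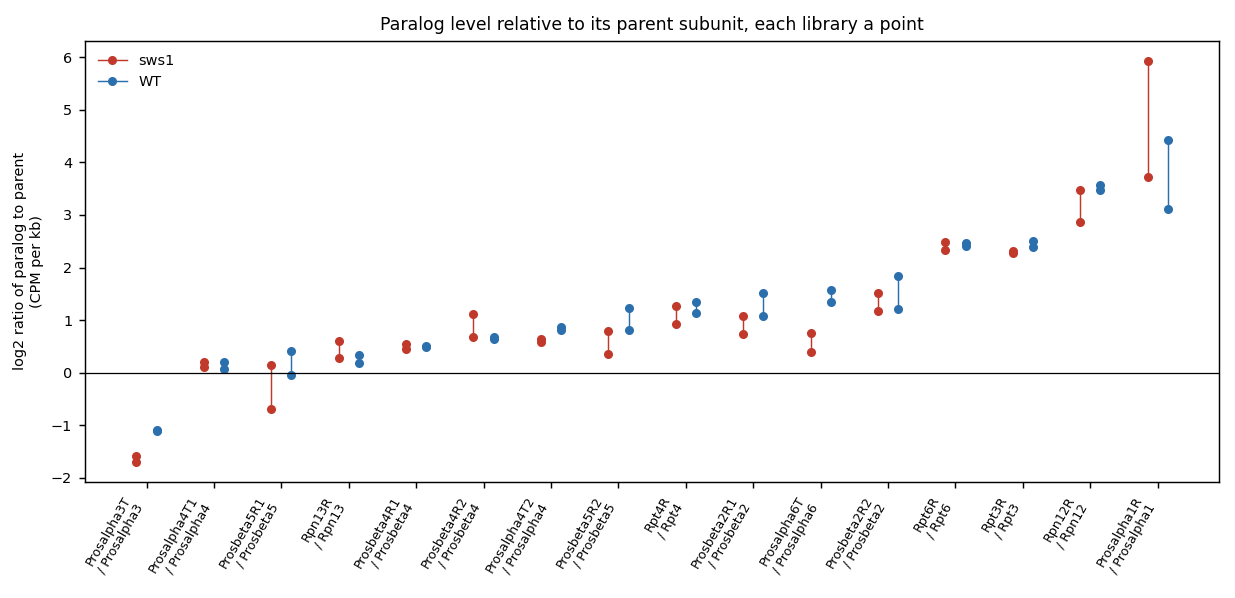
The log2 ratio of each paralog to its parent subunit in CPM per kilobase, with a point for each library, *sws1* in red and WT in blue. Values above 0 mean that the paralog had the higher level. The 2 genotypes are apart for *Prosalpha3T*, *Prosalpha4T2*, *Prosalpha6T*, *Prosbeta5R2* and *Rpt3R*, each with the lower ratio in *sws1*.

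Over the 16 pairs, the ratio of paralog to parent was lower in both *sws1* libraries than in both WT libraries in 5 pairs, higher in 0 and overlapping in 11. No share over all genes was computed for such ratios, and for the levels of single genes it was 28.9% in the lower direction, so nothing particular to the pairs is read from this count. The median difference between the genotypes was −0.16 on the log2 scale. The difference farthest from 0 was that of *Prosalpha1R* (1.06), whose libraries overlapped and whose counts are uncertain. Among the 5 pairs it was −0.89 for *Prosalpha6T*, followed by *Prosalpha3T* (−0.54), *Prosbeta5R2* (−0.45), *Prosalpha4T2* (−0.22) and *Rpt3R* (−0.15). The families with 2 paralogs share a parent, so these pairs are not independent. Gene structure also differed among the paralogs. Of the 16 paralogs, 6 have no intron, against 4 of the 32 canonical subunits. The median log2FC was −0.30 over these 6 and −0.07 over the 10 paralogs with introns. The 6 without introns are *Prosalpha3T*, *Prosalpha4T1*, *Prosalpha6T*, *Prosbeta5R2*, *Rpn12R* and *Rpn13R*, and the last of these had the highest log2FC of all paralogs.

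A list of genes that work with the proteasome was also looked up, of which 26 of 27 were found. Of these, 5 fell in *sws1* (19.2%, against 11.5% of all genes tested) and 1 rose (3.85%, against 9.38%), with a median log2FC of −0.14. Among the regulators of the core and cap, *REG*, an activator that docks on the alpha ring, had 332 and 286 counts in *sws1* and 666 and 454 in WT (log2FC −0.37, adjusted p = 0.0444, edgeR). *Uch-L5*, a deubiquitinase bound by *Rpn13*, had 744 and 599 counts in *sws1* and 1560 and 941 in WT (log2FC −0.40, adjusted p = 0.0116, edgeR). The core assembly factor *Pomp* was not called (log2FC −0.10). Of the 6 called partner genes, DESeq2 called *eff* and *Uch-L5* only.

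The unfolding factors that bring substrates to the proteasome were divided. *Ufd1* and *p47*, which are cofactors of the unfoldase *TER94*, fell with a log2FC of −0.64 and −0.42 (adjusted p = 0.00619 and 0.0366, edgeR). *TER94* itself had 1686 and 1708 counts in *sws1* and 2760 and 1881 in WT (log2FC 0.03). The shuttle factor *Rad23*, which carries ubiquitin-tagged proteins to the cap, rose, with 542 and 521 counts in *sws1* and 739 and 416 in WT (log2FC 0.40, SE 0.12, adjusted p = 0.0201, edgeR). Among the genes of ubiquitin and its transfer, the ubiquitin-conjugating enzyme gene *eff* fell to 1199 ± 51.6 CPM in *sws1*, against 1684 ± 225 CPM in WT (SD, n = 2 each; log2FC −0.49, SE 0.10, adjusted p = 0.00154, edgeR).

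The genes of the ubiquitin ligase that acts in spermatid individualization were not called. *Cul3*, its scaffold, had 581 and 756 counts in *sws1* and 1002 and 842 in WT (log2FC 0.00, SE 0.24). *Roc1b*, its RING subunit, and *klhl10*, its substrate adaptor, had a log2FC of 0.13 and −0.14. *soti*, an inhibitor of this ligase that is transcribed after meiosis, had 2339 and 2185 counts in *sws1* and 5157 and 2693 in WT, with both *sws1* libraries lower in CPM (log2FC −0.27, SE 0.10, adjusted p = 0.0629, edgeR). *ntc*, an F-box protein that binds the proteasome regulator *PI31*, had a log2FC of −0.28, and *PI31* had −0.21 (adjusted p = 0.0977 and 0.160, edgeR).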

How the data were processed

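Testes of 5-day-old *sws1* and WT (Canton S) males were sequenced with 2 libraries per genotype, after removal of ribosomal RNA. The authors trimmed reads with Trimmomatic, mapped them with Hisat2 and obtained a count for every annotated transcript with htseq-count. The deposited files hold these raw, unscaled counts. The genome release, the strand setting and the treatment of reads that match several transcripts are not given in the sources used here. Transcripts were matched by FlyBase identifier to the Ensembl release of BDGP6, the source of all coordinates, and 10 unmatched transcripts were left out.

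Counts were summed per gene and tested in R 4.3.3 with edgeR 4.0.16 (filterByExpr, TMM, robust quasi-likelihood test, genotype as the only term). Standard errors were derived from the log2FC and the F statistic (absolute log2FC over the root of F). Levels per length are CPM per kilobase of merged exons. Alternatives were DESeq2 1.42.0, other scalings, filters and thresholds, the replicate number as a block, transcripts as the unit, and leaving out each library. The edgeR and DESeq2 steps were tested on simulated data with 2-fold changes and a common dispersion for all genes. Smaller changes, such as those of the called members, were not simulated. The members and gene lists were chosen with earlier results of these data known. All members could be named. Of the partner list, called genes and *Cul3*, *Roc1b*, *klhl10*, *soti*, *ntc* and *PI31* (genes with a part in spermatid individualization) were named, and *Pomp* and *TER94* were added after their values were seen. The marker lists cover accessory gland, ejaculatory duct and bulb, spermatogonia, spermatocytes, post-meiotic genes, cyst cells, muscle and fat body. No sequence is shown. With 2 libraries per genotype, p-values rest on the spread between few samples.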

Additional observations from a re-analysis of the deposited data

How the results depend on the processing

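All 5 called members kept the sign of their log2FC in every fit on counts summed per gene. With DESeq2's size factors in edgeR, with a minimum of 10 counts per library, without a filter, or without a threshold on the log2FC, the same numbers of members were called in each direction. DESeq2 called 631 genes lower and 363 higher among all genes, 0 canonical subunits higher, and 2 partner genes lower and 0 higher, with a paralog median of −0.17. Upper-quartile factors left 0 canonical subunits, 1 paralog and 3 partner genes lower, with medians of 0.12 (canonical) and −0.10 (paralogs). The median log2FC over all genes moved as well, from 0.020 in the main fit to 0.071 with upper-quartile factors and 0.004 with DESeq2. With an absolute log2FC above 1, 221 genes were lower and 372 higher, and 0 members and 0 partner genes were called in either direction. With transcripts as deposited, 0 of 47 tested transcripts of canonical subunits and 0 of 22 of paralogs were called (edgeR), while 4 and 6 had an unadjusted p under 0.05. The matching shares of all transcripts tested are not given here, so nothing particular to the members is read from these counts. The biological coefficient of variation was 0.607 for transcripts and 0.106 for genes.

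With each library left out in turn, 759 to 1068 genes were lower and 635 to 837 higher, 0 to 1 canonical subunits were lower and 0 to 2 higher, 1 to 3 paralogs were lower and 0 higher, and 2 to 4 partner genes were lower and 0 to 1 higher. These fits assume that the lone library varies like those of the other genotype. Without WT replicate 1, only *Rpn12R* of the called paralogs stayed past the thresholds, and *Rpn6* did not (adjusted p = 0.165, edgeR). The medians ranged from −0.050 to 0.081 for canonical subunits and from −0.21 to −0.13 for paralogs. The difference in paralog share ranged from −3.09 to −2.32 percentage points. It was −3.30 with counts per kilobase and, in alternatives chosen after seeing the data, −1.89 without *Prosalpha1R* and −2.21 without *Prosalpha6* and *Prosalpha6T*. The share without near-identical paralogs was not run, as no sequences were compared. Replicate numbers did not pair the libraries (correlation of deviations −0.00 over genes), and the replicate block kept the number of members called at 1 canonical subunit lower, 1 higher and 3 paralogs lower, with 1152 genes lower and 952 higher in all.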

Other observations

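Marker lists outside the comparisons above gave the following values. The 11 spermatocyte genes summed to 909 and 886 CPM in *sws1* and to 948 and 874 CPM in WT. The 4 cyst cell genes summed to 104 and 134 CPM in *sws1* and to 95.9 and 100 CPM in WT, and the 3 matched spermatogonial genes summed to 47.9 and 66.3 CPM in *sws1* and to 75.2 and 93.9 CPM in WT. The 7 muscle genes summed to 921 and 760 CPM in *sws1* and to 721 and 804 CPM in WT, and the 4 fat body genes to 660 and 607 CPM in *sws1* and to 348 and 310 CPM in WT. The 3 matched ejaculatory duct and bulb genes summed to 245 and 191 CPM in *sws1* and to 73.1 and 66.9 CPM in WT. The leading transcript of a gene was mainly the same in the replicates of a genotype. It changed between the *sws1* replicates in 1, and between the WT replicates in 3, of the 20 proteasome genes that have several counted transcripts and a minimum of 50 counts per library.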
